A study of Homo sapiens with 8 samples.

Results

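Genes of DNA replication and DNA repair were followed in a table of N1-methyladenosine (m1A) positions from neuroblastoma cells. Members were chosen by gene symbol alone, as the families of the MCM and ORC proteins, the replicative and translesion polymerases, RPA, PCNA, RFC, DNA ligases, topoisomerases, and the FANC, RAD, XRCC, ERCC, BRCA, PARP, MSH and MLH genes, with ATM, ATR and TP53BP1. Of the 4945 genes with a listed position, 41 matched. They gave 92 records, 1 for each position and gene, at 91 distinct bases, because ERCC6 and the readthrough gene ERCC6-PGBD3 share a base. By their known roles 19 members were counted as replication genes and 19 as repair genes. The remaining 3 matched by name only: RAD21, a cohesin subunit, PARP6, a member of the PARP family with no settled role in repair, and ERCC6-PGBD3.

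The study compared control cells with cells given small interfering RNA against TRMT6 (siTRMT6), in 2 replicates each, and the labels name the cells SK-N-BE in the titles and SK-N-AS elsewhere, both established neuroblastoma lines. The labels give no transfection time and no control sequence. Fragmented polyadenylated RNA was either kept as input or precipitated with an m1A antibody, which gives 4 groups of 2 samples; the 4 count columns were taken as the m1A libraries because the table lists m1A sites, and their headers do not say so. No source calls the replicates separate cultures, so a p-value here reflects the scatter among 4 libraries and that scatter may be technical. TRMT6 had 0 listed positions, so the silencing could not be checked. Of 13 noradrenergic neuroblastoma markers 10 had a listed position, of 11 mesenchymal markers 3 had one, and of 5 markers of dividing cells all did.

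In each S phase the origin recognition complex loads the ring-shaped MCM helicase on DNA, and polymerases alpha, delta and epsilon copy the opened strands with the sliding clamp PCNA. Repair enzymes then correct mismatches, excise damaged bases and rejoin breaks, and many of them act at the fork itself. TRMT6 binds RNA for TRMT61A, the catalytic subunit with which it places m1A in the T-loop of tRNA and in similar stems of other RNAs. A methyl group on N1 of adenine blocks base pairing and disturbs reverse transcription at that base.

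The bases themselves could be read for 7 of the 91 member bases, those that fall within the RefSeq promoter windows of any gene in GRCh38.p14, the same build family as the hg38 of the deposited positions. Windows of 21 bases are shown because they show which base was listed. Each is printed 5′ to 3′ on the strand of the member's RNA, in DNA letters, with the listed base in capitals. In the listed transcripts the bases of MCM3 (a helicase subunit), PCNA (the clamp) and ERCC1 (a nuclease subunit) lie in 5′ UTRs. Those of POLE4 (an accessory subunit of polymerase epsilon) and ERCC6 (a transcription-coupled repair factor) lie in coding sequence.
MCM3, chr6:52284829-52284849, minus strand: tagtccgaccTcagagaactc
MCM3, chr6:52284843-52284863, minus strand: gattggacagTcgctagtccg
PCNA, chr20:5119995-5120015, minus strand: cgtggtgacgTcgcaacgcgg
ERCC1, chr19:45423519-45423539, minus strand: ggcgtggcgtTacagagcctc
ERCC6, chr10:49524497-49524517, minus strand: ccagccccagTgcaaaataaa
POLE4, chr2:74958859-74958879, plus strand: acaggaagccAtcttcattct

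In the genes on the minus strand the listed base was a U in the RNA, and in POLE4, on the plus strand, it was an A. PARP6, also on the minus strand, gave a U as well, so 6 of the 7 member bases checked were not an adenosine of the annotated RNA. The same held across the table. All 511 distinct listed bases that lie in RefSeq promoter windows were A on the plus strand of the genome, against 21.2% A in all windows. In RNA orientation these were A in all 170 records on plus-strand transcripts and U in all 384 records on minus-strand transcripts. Bases outside the promoter windows were not read. Of the 92 member records, 66 lay in 24 plus-strand genes and 26 in 17 minus-strand genes. The motif GTTCNA, the core of the T-loop, searched on both strands, was in 0 of the 8 member windows (ERCC6 and ERCC6-PGBD3 counted separately). It was in 1.34% of 522 windows of this length around listed bases of any gene and in 1.68% of windows cut end to end from the promoter table.

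Plus-strand genes were listed more often, in the members as in the whole table. RefSeq holds 122 protein-coding genes that match the rule, and 40 of them (32.8%, 95% Wilson interval 25.1 to 41.5) had a listed position, against 20.7% of 20056 protein-coding genes. Intervals here and below cover counting error only, and no account is taken of transcript length or abundance. Replication genes were listed in 19 of 38 cases (interval 34.8% to 65.2%) and repair genes in 19 of 68 (27.9%, 18.7% to 39.6%). Where the promoter table gives a strand, 9 of 12 plus-strand and 8 of 21 minus-strand replication genes were listed. Among repair genes these counts were 9 of 31 and 6 of 30. Across all protein-coding genes, 27.9% of 8085 on the plus strand and 15.5% of 7758 on the minus strand were listed.

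**Figure D1:**
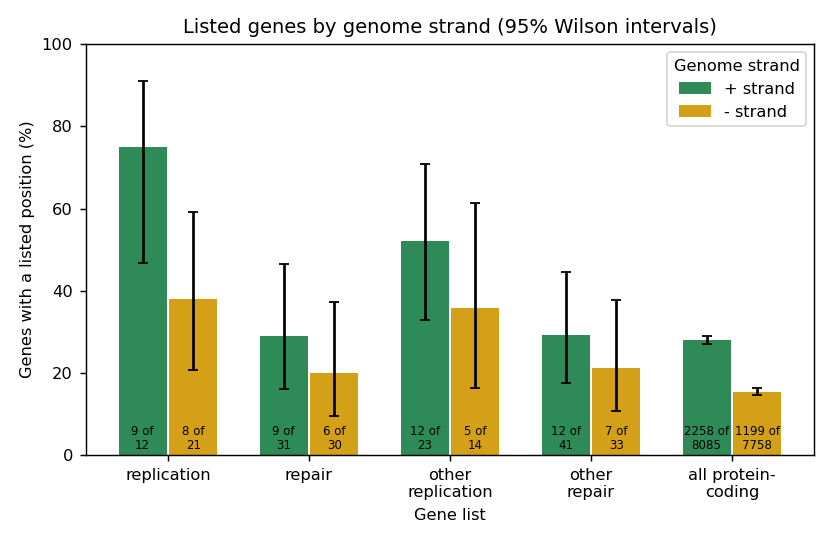
Share of genes with a listed position (vertical axis, %) by gene list and genome strand, with 95% Wilson intervals and the counts inside the bars. The plus-strand bar is the taller one in each of the 5 lists, 75.0% against 38.1% for replication genes and 9 of 31 against 6 of 30 for repair genes.

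The listed share differed in value from role to role, and the groups are small. The helicase group holds MCM2 to MCM7 and the helper MCM10. Wilson intervals were 48.7% to 97.4% for the helicase group, 39.7% to 89.2% for the polymerases and 25.0% to 84.2% for mismatch repair. These lie above the 20.7% of all protein-coding genes, and the other intervals of the groups named next hold that value. The groups were not tested against each other. Of the helicase group 6 of 7 genes were listed, MCM6 being the exception, and of the replicative polymerase genes 7 of 10, without POLD3, POLE2 and POLE3. Only ORC6 of the 6 origin recognition genes had a position, and none of the 5 genes of RFC, which loads the clamp (interval up to 43.4%). Among repair genes, 4 of 7 mismatch repair genes, 4 of 10 nucleotide excision genes and 3 of 7 end-joining genes had one. Recombination genes had 2 of 17 (MCM8 and RAD51AP1; interval 3.29% to 34.3%), and BRCA1, BRCA2 and RAD50 were among those without. Of the Fanconi anaemia genes 2 of 10 were listed, FANCA and FANCI, and of the checkpoint genes RAD1 alone of 6. ATM, ATR and PARP1 had no listed position. A missing position cannot be read as missing m1A, since the authors' adjusted p is below 0.05 at all but 1 of the 9962 positions listed and other positions were not analysed here.

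Reads were few and came almost always from 1 library. Control 1, control 2, siTRMT6 1 and siTRMT6 2 had 67, 442, 284 and 60 member reads, in 8, 45, 32 and 8 of the records. A member record held 5 to 20 reads, with a median of 9, the same median as over all 10574 records of the table. In 91 of the 92 records the reads came from a single library, as they did in 10428 of all 10574 records. The exception was XRCC6 at 41636740 of chromosome 22, with 10 reads in siTRMT6 1 and 7 in siTRMT6 2. Counted over distinct bases, members took 0.774% and 0.943% of the listed reads in control 1 and control 2, and 0.697% and 0.434% in siTRMT6 1 and siTRMT6 2. The conditions do not overlap in this share, and how often other gene sets separate in this way was not tested. With 2 libraries against 2 no exact test can go below p = 0.333, and the depth differed widely, from 8655 listed reads in control 1 to 46007 in control 2.

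**Figure D2:**
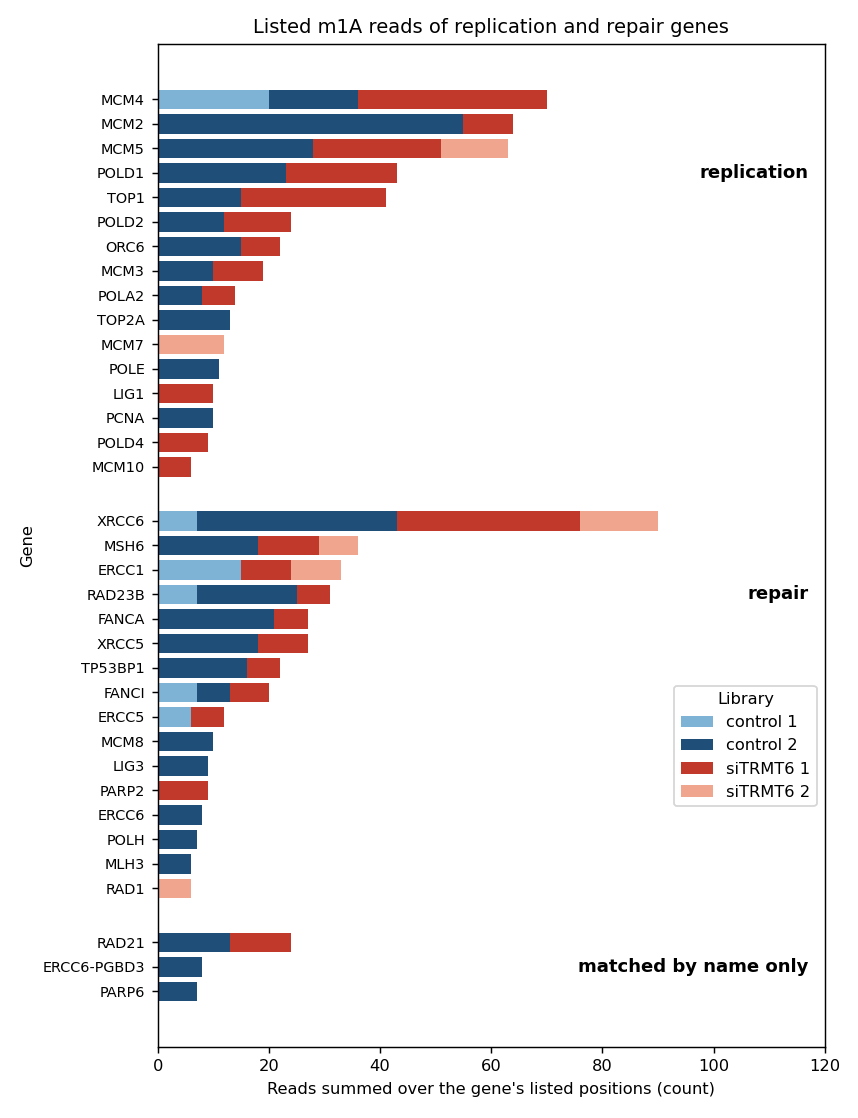
Reads summed over the listed positions of each member with more than 5 reads (horizontal axis, count), stacked by library and grouped by role. XRCC6 carries reads of all 4 libraries, and most of the shorter bars hold reads of 1 library.

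The helicase group, MCM10 included, held 20 positions, 11 listed as higher in siTRMT6 and 9 as lower in the authors' deposited table. MCM2, a subunit of the ring that also binds histones, had 0, 55, 9 and 0 reads in control 1, control 2, siTRMT6 1 and siTRMT6 2. On chromosome 3 it held 20 reads at each of 127605118 and 127606214 in coding sequence and 15 at 127622305 in the 3′ UTR, all in control 2, and 9 at 127619238 in siTRMT6 1. The first pair were the highest counts of any member, and the authors' deposited table gave each a log2 fold change of -5.51 (adjusted p = 3.17e-05). MCM2 thus rests on 1 library of each condition.

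MCM4, another helicase subunit, had 20, 16, 34 and 0 reads in the libraries in that order. Its 6 positions on chromosome 8 formed 3 pairs in coding sequence, each with a control position and a siTRMT6 1 position. Control 2 had 16 reads at 47966363 and siTRMT6 1 had 12 reads 13 nt further on. Control 1 had 10 reads at 47970740 and again 10 at 47974799, and siTRMT6 1 had 11 reads 53 nt and 64 nt beyond them. The authors' deposited table lists the control base of each pair as lower and its neighbour as higher.

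MCM5, the subunit at the ring's gate with MCM2, had 0, 28, 23 and 12 reads. Its 3′ UTR on chromosome 22 was read in 3 libraries: 6 reads of siTRMT6 2 at 35424337, 11 of siTRMT6 1 at 35424364 and 14 of control 2 at 35424376. Its coding positions held 6 reads in siTRMT6 2 at 35403281, 14 in control 2 at 35403511 and 12 in siTRMT6 1 at 35406712. The same 3 libraries thus read both the coding sequence and the 3′ UTR of MCM5.

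In MCM3, control 2 read the base at 52284839 of chromosome 6 (10 reads) and siTRMT6 1 the base at 52284853 (9 reads), the bases shown above, 43 and 29 nt from the start of the listed transcript. MCM7 had 12 reads in siTRMT6 2, and MCM10, which helps activate the helicase, had 6 in siTRMT6 1. ORC6, the smallest origin recognition subunit, had 15 reads over 2 positions in control 2 and 7 in siTRMT6 1.

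**Figure D3:**
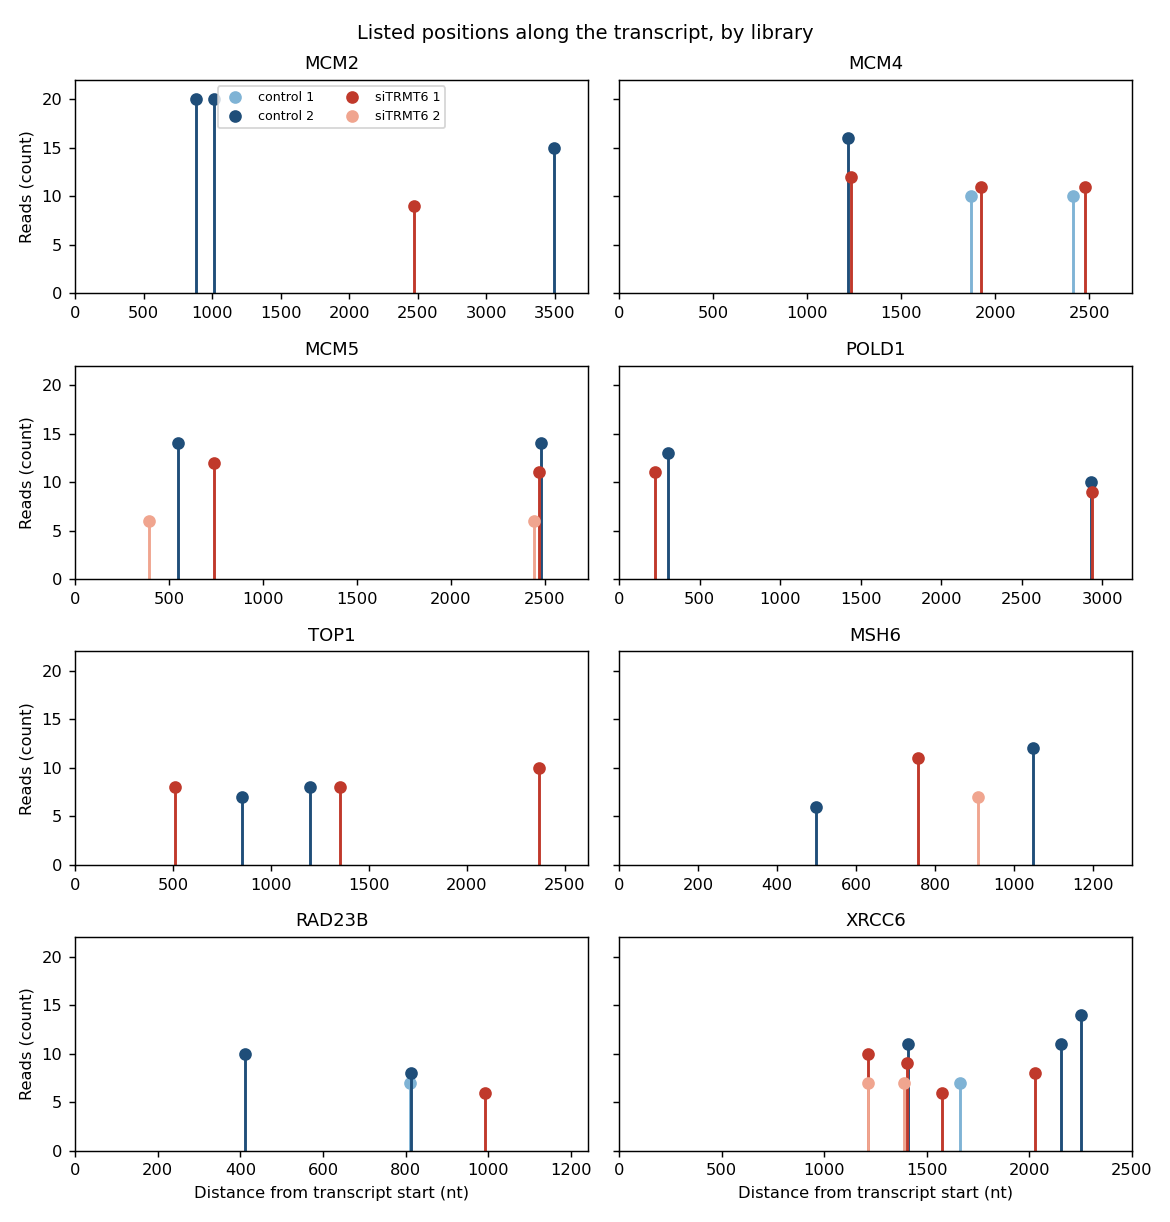
Reads at each listed position (vertical axis, count) against its distance from the transcript start (horizontal axis, nt, as listed for the 1 transcript that carries all positions of the gene), for 8 members, coloured by library. In MCM4 each of the 3 control positions has a siTRMT6 1 position beside it, and in XRCC6 positions of all 4 libraries lie between 1214 and 2251 nt.

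The replicative polymerases held 12 positions in 7 genes, none with reads in siTRMT6 2. POLD1, the catalytic subunit of polymerase delta, had 0, 23, 20 and 0 reads on chromosome 19. Control 2 gave 10 reads at 50416451, 3 nt from the 9 reads of siTRMT6 1 at 50416454. Upstream of these, siTRMT6 1 gave 11 reads at 50399021 and control 2 gave 13 at 50399417. POLD2, the delta subunit that bridges the catalytic one to the rest, was read 12 times by control 2 at 44122273 and 12 times by siTRMT6 1 at 44122280 of chromosome 7, bases of the 5′ UTR 30 and 23 nt from the transcript start. POLA2, the regulatory subunit of polymerase alpha, had 8 reads in control 2 and 6 in siTRMT6 1 in its 3′ UTR, 157 nt apart. For these 3 genes the reads of control 2 and siTRMT6 1 were nearly level.

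The other polymerase genes had reads in 1 library each. POLE, the catalytic subunit of polymerase epsilon, had 11 reads in control 2, POLD4 had 9 in siTRMT6 1, POLE4 had 5 in control 2 and POLA1, the catalytic subunit of polymerase alpha, had 5 in control 1. PCNA had 10 reads in control 2, 22 nt from the transcript start, LIG1, which joins Okazaki fragments, had 10 in siTRMT6 1, and RPA1, which coats single strands, had 5 in control 2. TOP1, which relaxes supercoils ahead of the fork, had 0, 15, 26 and 0 reads over 5 coding positions, and TOP2A, which decatenates sister chromosomes, had 13 in control 2.

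Among repair genes the end-joining group held the most positions, 15, all in coding sequence. XRCC6 encodes Ku70, which with Ku80 caps broken DNA ends. It had 7, 36, 33 and 14 reads over 9 positions, 5 listed higher and 4 lower in the authors' deposited table. Within 21 nt of chromosome 22, siTRMT6 2 had 7 reads at 41637751, siTRMT6 1 had 9 at 41637769 and control 2 had 11 at 41637772. The base read by both siTRMT6 libraries, at 41636740, had a log2 fold change of 4.90 (adjusted p = 0.000327) in the authors' deposited table, the highest of any member, and control 2 read XRCC6 at 41658332 (11 reads) and 41661404 (14 reads), listed as lower. RefSeq lists pseudogenes named after XRCC6, and how multiply mapped reads were handled is not given in the sources used here, so its counts are uncertain. The same holds for RAD23B, TOP1, RAD21, POLD2, PCNA, POLE4, POLH, RAD1 and RAD51AP1.

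XRCC5, which encodes Ku80, had 0, 18, 9 and 0 reads over 3 positions. TP53BP1, which directs breaks to end joining, had 0, 16, 6 and 0. In these genes, as in most others, the reads of a condition came from its deeper library.

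Mismatch repair genes held 7 positions. MSH6, a subunit of the heterodimer that recognises mismatches, had 0, 18, 11 and 7 reads on chromosome 2. The 7 reads of siTRMT6 2 at 47798739 and 12 of the control 2 reads, at 47798879, lay 140 nt apart. MLH3, a subunit of a mismatch repair nuclease, had 6 reads in control 2. Nucleotide excision genes held 10 positions. RAD23B, a partner of the damage sensor XPC, had 7, 18, 6 and 0 reads on chromosome 9, and both controls read it within 4 nt, 7 reads at 107306609 and 8 at 107306613. ERCC1 had 15, 0, 9 and 9 reads on chromosome 19: control 1 read the 3′ UTR at 45409464 (15 reads), siTRMT6 2 read it at 45409352 (9 reads), and siTRMT6 1 read the 5′ UTR at 45423529 (9 reads). ERCC5, the 3′ nuclease of this pathway, had 6 reads in control 1 and 6 in siTRMT6 1, and ERCC6 had 8 in control 2.

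FANCA, a subunit of the Fanconi core complex, had 0, 21, 6 and 0 reads on chromosome 16. Of these, 14 lay at 89738154 in the 3′ UTR, and 7 in control 2 and 6 in siTRMT6 1 lay 54 nt apart in coding sequence. FANCI, which is ubiquitinated with FANCD2, had 7, 6, 7 and 0 reads at 3 separate places. The remaining repair genes had 1 position each: MCM8, a helicase of recombination, 10 reads in control 2; LIG3, a ligase of single-strand breaks, 9 in control 2; PARP2, a break sensor, 9 in siTRMT6 1; POLH, a translesion polymerase, 7 in control 2; RAD1, part of the checkpoint clamp, 6 in siTRMT6 2; and RAD51AP1, a helper of strand invasion, 5 in control 2. Of the genes matched by name only, RAD21 had 13 reads in control 2 and 11 in siTRMT6 1, 32 nt apart in its 5′ UTR, and PARP6 had 7 in control 2.

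No member was shown to differ between the conditions beyond the spread of the libraries. Fitted over the whole table with edgeR's quasi-likelihood test, none of the 91 member bases passed the filter on low counts, which kept 34 of 9962 positions (64.7% of those were called). Summed per gene, 7 members were among the 975 genes tested, and 0 were called at an adjusted p below 0.05, as were 0% of all genes tested. At an unadjusted p below 0.05 edgeR gave 126 of the 975 genes and 0 of the 7 members. DESeq2 called 1 of the 975 genes (84 at an unadjusted p below 0.05) and 0 of the 7 members, with 0 also unadjusted. The fitted log2 fold changes ran from -2.15 (standard error 1.94) for RAD23B to 0.77 (2.42) for MCM5, with -0.48 (2.37) for MCM4, -0.13 (2.86) for POLD1, 0.12 (2.54) for ERCC1, 0.38 (1.43) for XRCC6 and 0.48 (2.25) for MSH6. Each has an edgeR adjusted p of 0.9998. The edgeR standard errors, 1.43 to 2.86, were worked back as the absolute log2 fold change over the square root of the F statistic. They are approximate and fail where the change is near 0. DESeq2, which fits its own, gave 1.46 (XRCC6) to 3.10 (POLD1). With errors of this size, changes of several fold in either direction could go undetected at this depth. The median over the 975 genes was 0.24 and over the 7 members 0.12. These genes passed the filter by having enough reads for the depth in more than 1 library, so they do not stand for the other members.

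The authors' log2 fold changes are ratios of reads summed over the replicates, and how their p-values were made is not known here. In the authors' deposited table all 92 member records have an adjusted p between 3.17e-05 and 0.0376, 39 of them higher in siTRMT6 and 53 lower, with log2 fold changes from -5.51 to 4.90. Of all 9962 positions the authors listed, 49.6% were called higher and 50.4% lower. Replication genes had 21 of 44 records higher (47.7%, Wilson interval 33.8 to 62.1) and repair genes 17 of 44 (38.6%, 25.7 to 53.4). Both intervals hold the value of the whole table and each other's. With a library left out, records without reads in the other libraries were dropped and the listed direction was kept. Nearly every record had reads of 1 library, so these shares had to move with the library dropped. Without control 2, 87.5% of replication and 77.3% of repair records were higher, and without siTRMT6 1, 11.5% and 15.6%. At the level of genes, 9 replication genes and 9 repair genes had reads in both conditions, 6 and 8 in the controls only, and 4 and 2 in siTRMT6 only. Over all members 46.3% of genes had reads in both conditions, 39.0% in the controls only and 14.6% in siTRMT6 only, against 39.1%, 33.9% and 27.0% of the 4945 listed genes. These counts are not calls.

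Where both conditions had reads close together, the summed reads differed by less than their counting error. Joining positions of a gene that lie within 200 nt of the next gave 76 member regions, of which 14 held more than 1 position, and 13 held both conditions (17.1%, Wilson interval 10.3 to 27.1, against 17.3% of 8488 regions in the table). No library appeared more than once in any of the 14. Replication genes had 8 such regions in 6 genes, MCM3, MCM4, MCM5, POLA2, POLD1 and POLD2, repair genes had 4, and RAD21 had 1. With each condition divided by its listed reads, the log2 of siTRMT6 over control had a median of -0.15 over the 13, the same as over the 1470 such regions of the table. It ran from -0.78 for MSH6 (exact interval -2.36 to 0.69) to 0.54 for XRCC6 (-0.66 to 1.80). Every one of the 13 intervals holds 0. On the scale of the authors' log2 fold changes each value is lower, which changes the sign for POLD2 (0.0021 against -0.18) and for the MCM4 regions 53 and 64 nt wide (0.14 against -0.05). These regions were chosen for having listed reads in both conditions. Tested as regions with edgeR, 525 passed the filter and 0% were called (131 at an unadjusted p below 0.05). DESeq2 called 1 region, no member, and gave 28 at an unadjusted p below 0.05. Among the 525 regions that passed the filter, the 1 member was the ERCC1 region of the 3′ UTR. Its log2 fold change in edgeR was -0.25 (standard error 3.49, worked back as above). Its unadjusted p was 0.948 in edgeR and 0.904 in DESeq2.

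**Figure D4:**
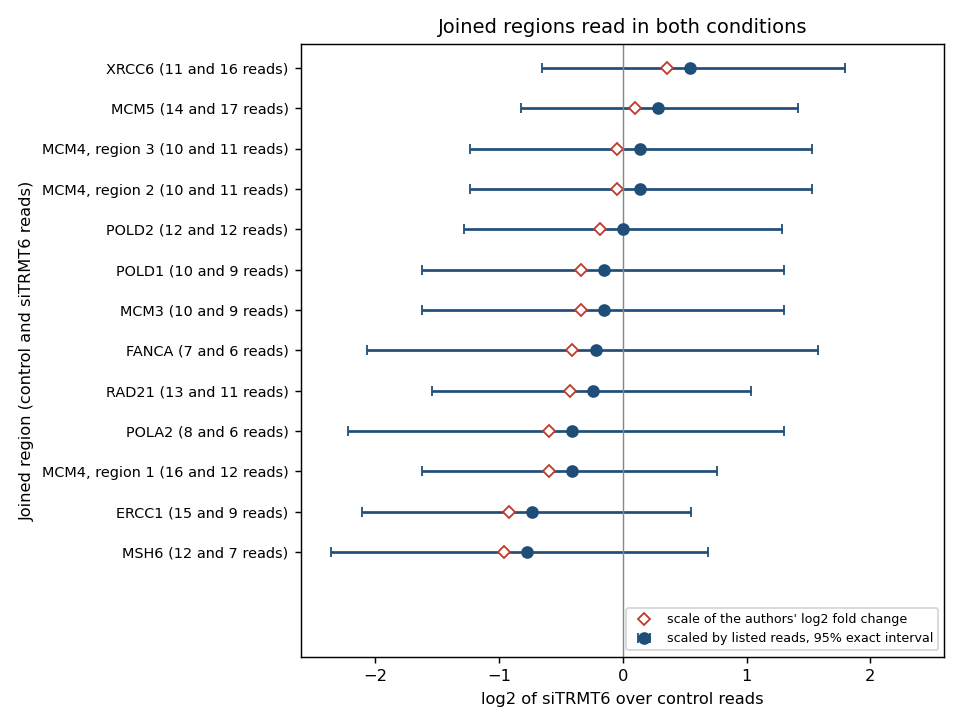
Log2 of siTRMT6 over control reads (horizontal axis) for the 13 member regions read in both conditions, with 95% exact intervals that cover counting error only. All 13 intervals cross 0, and the open diamonds give the value on the scale of the authors' log2 fold changes.

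Replication and repair genes were spread over transcript regions in shares whose intervals overlap. Coding sequence held 31 of 44 replication records (70.5%, Wilson interval 55.8 to 81.8) and 35 of 44 repair records (79.5%, 65.5 to 88.8), against 61.7% of all 10574 records. That 61.7% is lowered by 623 records on non-coding RNA (5.89%), of which members have 0, so the shares are not on the same base. The 3′ UTR held 8 and 6 records, and the 5′ UTR 5 and 3. The replication records in 5′ UTRs were those of MCM3, PCNA and POLD2, all on the minus strand and all within the first 50 nt of a listed transcript. Such early positions made up 11.4% of replication records, 2.27% of repair records (ERCC1) and 4.13% of all records. The replication share includes the MCM3 records, at 52284839 and 52284853, beyond the RefSeq end of that gene at 52284742. Of 91 member records with a RefSeq symbol, 88 lay inside the RefSeq span of the gene. RAD1, at 34915857 with a RefSeq end of 34915504, also lay outside. Among plus-strand members, a split that was not planned, no replication record lay in a 5′ UTR, and 90.6% of repair records were coding.

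**Figure D5:**
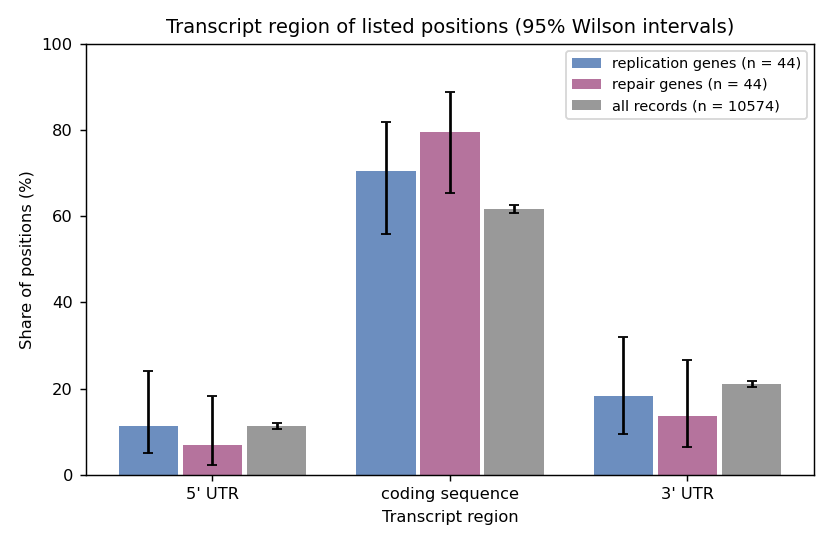
Share of listed positions (vertical axis, %) in each transcript region for 44 replication records, 44 repair records and all 10574 records, with 95% Wilson intervals. The intervals of replication and repair genes overlap in every region; records on non-coding RNA (5.89% of all records) are not drawn.

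The balance between the roles differed between libraries more than between conditions. Replication genes took 37.3% of the reads of both roles in control 1 (67 reads), 54.6% in control 2, 62.6% in siTRMT6 1 and 40.0% in siTRMT6 2 (60 reads). The conditions overlap, and their means differ by 5.37 percentage points (exact permutation test over libraries, two-sided, p = 0.667, with 0.333 the smallest possible). The larger libraries, control 2 and siTRMT6 1, have the larger shares. The part of depth in this was not tested. The difference is -2.65 points among plus-strand members, a split that was not planned. It is -3.27 without control 1 and -5.95 without siTRMT6 1, and 14.0 and 16.7 without control 2 and siTRMT6 2.

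Pathway genes outside the name rule were listed in both directions too. Of 45 other replication genes 18 had a listed position (40.0%), with 25 positions higher and 27 lower in the authors' deposited table. CHAF1A, a subunit of the chromatin assembly factor that follows the fork, had 0, 68, 37 and 16 reads over 10 positions. UHRF1, which recruits the maintenance methyltransferase, had 0, 39, 6 and 13, RRM2, a ribonucleotide reductase subunit, had 0, 26, 20 and 0, CDT1, a licensing factor, had 0, 19, 15 and 10, and FEN1, the flap nuclease, had 15, 0, 26 and 0. Of 90 other repair genes 22 were listed (24.4%), with 16 positions higher and 22 lower. MDC1, the scaffold of the damage response at chromatin, had 51, 15, 52 and 59 reads over 9 positions, APEX1, the abasic site nuclease, had 0, 22, 23 and 0, RNF168, a ubiquitin ligase at breaks, had 0, 20, 15 and 0, the checkpoint kinase CHEK1 had 0, 19, 8 and 0, and SLX4, a nuclease scaffold, had 0, 9, 8 and 0. MDC1 was the 1 gene of these with reads in all 4 libraries.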

How the data were processed

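The submitters' processing notes name STAR, FastQC 0.11.3 and hg38. How positions were called, counted and tested is not given in the sources used here. The deposited table lists, per the file headers, read counts in 4 libraries, the authors' log2 fold change and the authors' p-value and adjusted p-value, on 25539 lines for 9962 positions. The deposited log2 fold change equals the log2 of summed siTRMT6 over summed control reads (0.5 standing in for a sum of 0), less 0.18. Sites are listed from 0 and given here from 1. Each position kept the region of its first listed transcript.

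Counts per position, per gene and per region joined within 200 nt were fitted over the whole table with edgeR 4.0.16 in R 4.3.3 (TMM, filterByExpr with its minimum count of 10, quasi-likelihood test, Benjamini-Hochberg adjustment at 0.05), with DESeq2 1.42.0 as an alternative. The edgeR steps were tested on simulated data with far less scatter than these data, whose gene fit had a common dispersion of 2.6. That test checks that the steps run correctly and does not show what the fits could detect here. Libraries held 8655 to 46007 listed reads, which is not their sequencing depth, and a median of 9 reads per record limits precision. Input counts are not used here, and some genes are not reported here. Members, lists and tests were chosen with earlier results of these data known. Given in every library were members with 3 or more positions, with a region read in both conditions, among the 10 with most reads or passing the filter. Other members could be named within their role group, and most are, by their reads. For pathway lists the 5 genes with most reads were named. RefSeq symbols matched 40 of the 41 members.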

Additional observations from a re-analysis of the deposited data

How the results depend on the processing

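No member was called in any of the alternatives run, but few could have been. With the filter and every library kept, 0 member positions were tested, so the position calls below hold no member. With a library left out 1 to 5 were tested. The main fits tested 7 member genes and 1 member region. Without the filter 91 positions, 41 genes and 76 regions of members were tested. Over all positions, 22 calls (13 higher, 9 lower) became 29 with equal library sizes (10 higher, 19 lower), 14 with listed reads as library size (13 higher, 1 lower), 0 with DESeq2 (14 at an unadjusted p below 0.05), 0 without the filter and 0 to 0 when a library was left out. Over genes and over joined regions 0 calls became 1 each with DESeq2, MT-ND6, a mitochondrial gene named after its values were seen. With the replicate number as a block (replicate block) there were 0 position, 0 gene and 0 region calls. Same-numbered libraries deviated with r = -0.27 in regions, -0.09 in genes and 0.28 in positions. The sign differs between these levels, so the values cannot decide whether the numbers pair the libraries. A crossed pairing, added after seeing the data, gave 0, 1 and 0 calls. Scaling moved the median log2 of the genes tested from 0.24 (TMM) to 0.15 (listed reads), with 975 genes in each. With equal sizes it was 0.06 over 1106 genes, so there the set of genes changed with the scaling.

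Of the 7 members fitted, RAD23B kept its sign in every setting that fitted it (-6.43 to -1.14 over 3 left-out libraries) and the other 6 did not. RAD23B did not pass the filter with equal library sizes or without control 2. Without siTRMT6 1 it had 0 siTRMT6 reads, which fixed its sign there. ERCC1 reversed to -0.997 with listed reads and -0.17 with DESeq2, and POLD1 to 0.0128 with the block. With 1 library left out, where the gene still passed the filter, the log2 values ran from -0.79 to 6.49 for ERCC1, -7.08 to 0.63 for MCM4, -0.20 to 7.07 for MCM5, -0.17 to 1.499 for XRCC6 (4 libraries each), and -0.48 to 0.40 for MSH6 and -1.04 to 0.91 for POLD1 (2 libraries each, control 1 and siTRMT6 2). The replication share of reads reversed to -2.65 points among plus-strand members, a split that was not planned. It ran from -5.95 to 16.7 over left-out libraries. The shares listed higher ran from 11.5% to 87.5% (replication) and 15.6% to 77.3% (repair) over left-out libraries. That range follows from which records were dropped, since the listed direction was kept. In the same unplanned plus-strand split 0% of replication records lay in 5′ UTRs, and repair records were 90.6% coding and 6.25% in 3′ UTRs.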
